A study of Mus musculus with 2 samples.

Results

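The mouse collagen chain genes are the subject here, taken as every gene symbol made of Col, a number, a and a number, with nothing before or after. The rule found 44 of the 31053 genes in the count tables. Sensory epithelia of the utricle, a balance organ of the inner ear, came from wild-type C57BL/6J mice before birth at embryonic day 14 (E14) or after it at P2, postnatal day 2, and no genotype or treatment separates these libraries. They were loosened with thermolysin, dissociated with Accutase and profiled by droplet-based scRNA-seq of transcript 3′ ends, with 1 library at each age and, by the study's general methods, tissue of several animals in each. With no replicate library, all intervals cover counting error only, and age and library cannot be told apart.

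Collagens are secreted proteins in which glycine-rich chains wind around one another into a helix. Fibrillar collagens pack into cable-like fibrils, type IV forms the sheet of basement membranes, and FACIT collagens (fibril-associated collagens with interrupted helices) coat the fibrils. Types II, IX and XI share fibrils in cartilage and in the acellular membranes of the inner ear, and many of these genes are at the same time classic products of mesenchyme. The question followed here was which chains epithelial cells carry at a level beyond RNA that strays from neighbouring mesenchyme.

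The E14 library held 122892080 UMIs (unique molecular identifiers, each marking 1 captured transcript) in 15636 barcodes, and the P2 library 57003553 UMIs in 6251 barcodes. After filtering, 10138 and 3877 cells remained, and 23 barcode sequences occurred in both libraries, 10 of them among the kept cells. Cells were clustered and named from marker genes that included no collagen, and a name ending in "-like" states only that markers of that cell type led the cluster. Mesenchymal cell-like cells made up 40.7% of the kept E14 cells and 0.825% of those at P2, where they were 1 cluster of 32 cells with Epcam, a general epithelial gene, at 397 CPM (counts per 1000000 UMIs). Clusters without a name held 30.9% of the E14 cells and 45.2% of the P2 cells, and those of them with at least 500 CPM of Epcam are called unnamed epithelial. No cluster at either age carried a chondrocyte or neuron name, and no glial, endothelial, pericyte, melanocyte or blood name was given at P2.

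Collagen transcripts were 0.476% of all UMIs in kept cells at E14 and 0.286% at P2. In the E14 mesenchymal cell-like class they were 0.692% of UMIs (exact binomial 95% interval 0.689 to 0.695). Supporting cell (SC)-like cells of the same library gave 0.282% (0.279 to 0.285) and nonsensory epithelial-like cells 0.404% (0.400 to 0.408). Hair cell (HC)-like cells gave only 0.0413% (0.0389 to 0.0439). At P2 the SC-like share was 0.422% (0.418 to 0.425), the nonsensory epithelial-like share 0.478% (0.469 to 0.488) and the HC-like share 0.0390% (0.0379 to 0.0401). The lowest shares were those of E14 immune-like cells with 0.0162% and red blood cell-like cells with 0.0283%, while barcodes below 1000 UMIs, which were not kept, held 0.244% at E14 and 0.267% at P2.

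Of the 44 genes, 43 had at least 1 UMI in each library. Col6a5, a type VI chain, had none in either, which allows up to 0.116 CPM in the E14 mesenchymal cell-like class and up to 0.249 CPM in the P2 SC-like class (upper ends of exact Poisson 95% intervals). Col10a1, the chain of hypertrophic cartilage, had 1 UMI at E14 and 2 at P2, and Col17a1, a hemidesmosome protein of stratified epithelia, had 4 and 6. Col19a1 and Col22a1, both FACIT chains, had 6 and 24 UMIs and 32 and 17 UMIs at E14 and P2, and Col28a1 had 23 and 1. Comparisons of levels between genes rest on UMIs, of which a transcript gives 1 at its 3′ end, so no division by length was made, and no member shares the strand of its last 1 kb with another gene in the GENCODE M21 annotation.

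**Figure D1:**
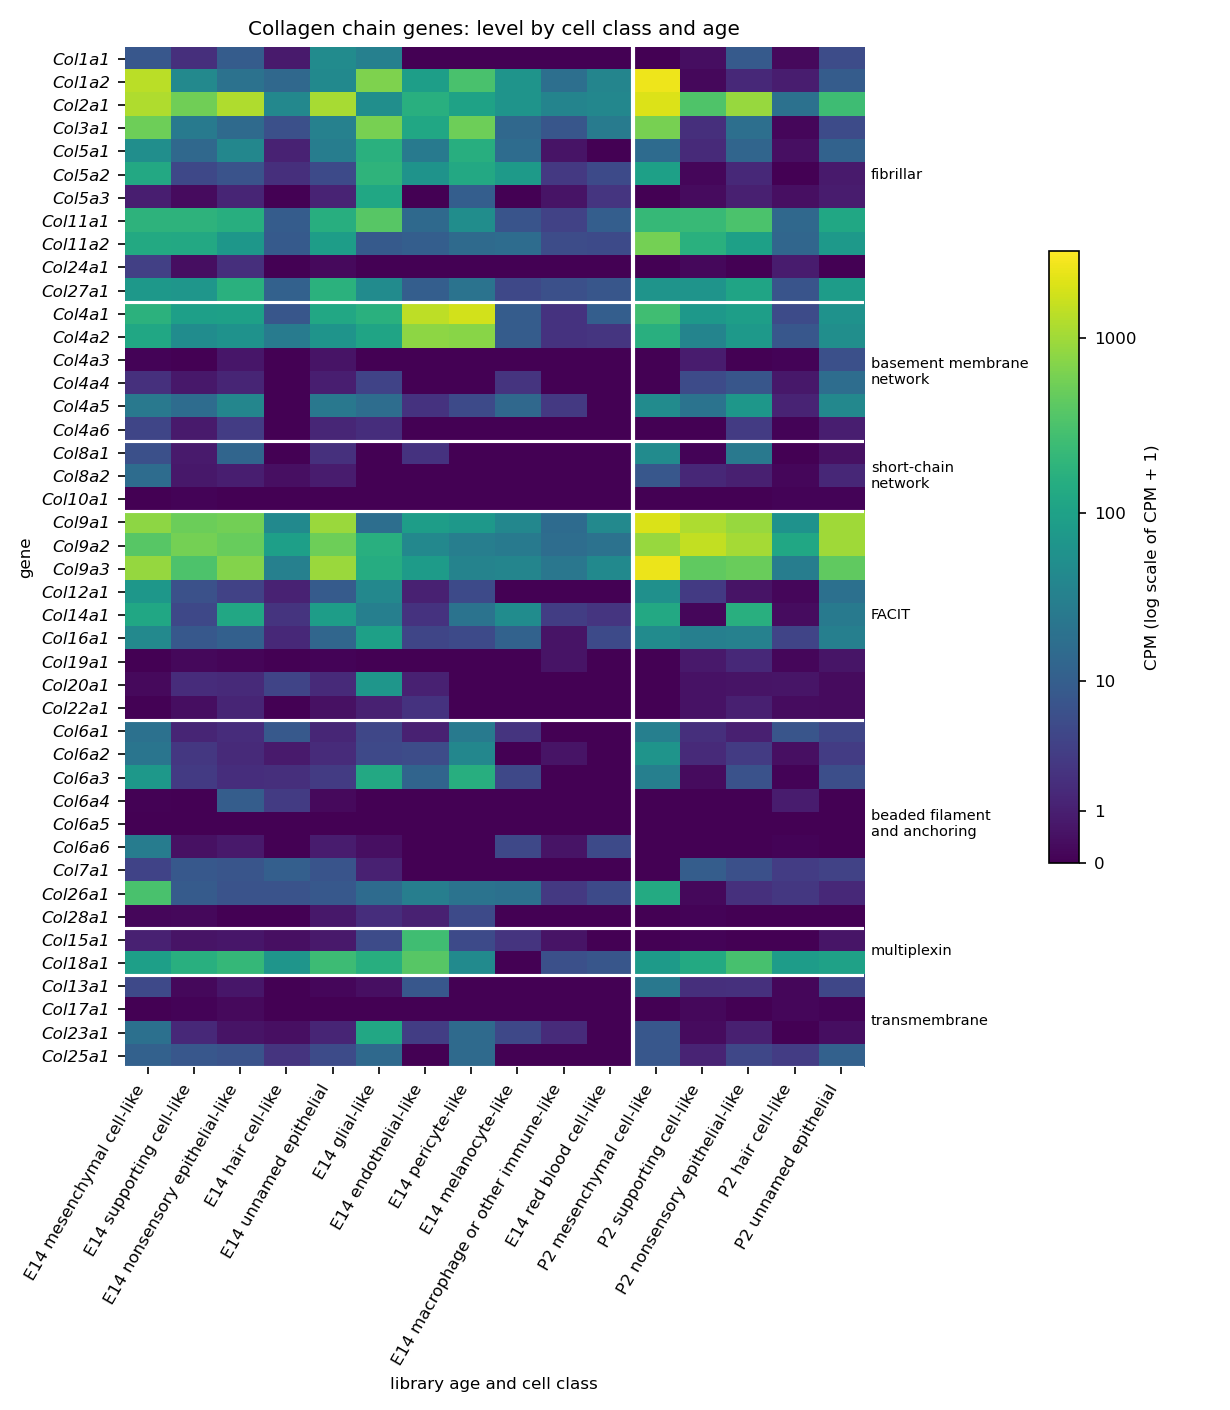
Level of the 44 collagen chain genes (rows, grouped by structure) in each named class and in the unnamed epithelial clusters (columns, E14 left and P2 right of the white line), as CPM on a logarithmic colour scale. Type II and type IX chains are bright in mesenchymal cell-like and epithelial columns alike, whereas Col1a2 is bright in mesenchymal cell-like cells (1358 CPM at E14, 2557 CPM at P2) and dark in P2 SC-like cells (0.202 CPM).

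Stray RNA was gauged from 12 mesenchymal genes that are not collagens, among them Pdgfra, Dcn and Pou3f4. Their summed level in E14 SC-like cells was 4.07% of that in E14 mesenchymal cell-like cells, in nonsensory epithelial-like cells 2.60% and in HC-like cells 1.02%. At P2 these values were 0.376%, 0.746% and 0.117%. The same percentage of a collagen gene's mesenchymal level was taken as the level that stray RNA or stray cells would bring along, and a gene counted as above it where it had at least 3 UMIs and the lower bound of its level was more than 2 times the prediction. In E14 cells 21 of the 36 members with at least 3 UMIs passed in the SC-like class, 27 of 39 in the nonsensory epithelial-like class and 15 of 24 in the HC-like class. Most genes of any kind pass such a rule, since it asks only for more than a small percentage of the mesenchymal level, and of all genes with at least 3 UMIs 96.8%, 98.1% and 98.4% passed in these classes. At P2, where the prediction rests on 32 mesenchymal cell-like cells, 30 of 34, 25 of 28 and 24 of 27 members passed, and 99.3%, 99.6% and 99.6% of all genes. Of the P2 passes 10, 5 and 8 were of members with 0 UMIs in those 32 cells, where the prediction is 0 and any 3 UMIs pass, so only the other 20, 20 and 16 compare with a measured level. By the same rule 4 of the 24 members with a UMI passed in E14 immune-like cells. In melanocyte-like cells 4 of 23 passed and in red blood cell-like cells 0 of 18. These totals include members with fewer than the 3 UMIs a pass needs, and the share of all genes was not computed there. They cannot be set beside the epithelial counts. A pass therefore does not by itself show that a class makes the transcript.

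The make-up of the collagen transcripts differed between the tissues. In E14 mesenchymal cell-like cells 53.1% of collagen UMIs were fibrillar and FACIT genes came next, and in E14 SC-like cells the order was turned, with 35.9% fibrillar and 51.5% FACIT. At P2 SC-like cells held 74.0% FACIT and 19.2% fibrillar UMIs. Between E14 mesenchymal cell-like cells and the epithelial classes together (SC-like, nonsensory epithelial-like and HC-like), 29 members reached a mean level of 5 CPM and 30 UMIs in the sum, and 16 of them were at least 2-fold higher in mesenchymal cell-like cells, where 8.28% of all 10753 genes that passed the same filter were. Only Col7a1 was at least 2-fold lower, against 16.0% of all genes. The median log2 ratio was 1.19 for the 29 members and -0.12 for all genes, and the other 15 members were too low to compare. With the unnamed epithelial clusters added to the epithelial side, 14 of 29 were higher, as were 7.64% of all genes, and 2 were lower, as were 14.4%.

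Col1a2, a chain of type I collagen, stood at 1358 CPM in E14 mesenchymal cell-like cells and 30.9 CPM in the epithelial classes, a ratio of 44.0 (95% interval 40.9 to 47.4). Col3a1, the chain of type III fibrils, stood at 537 and 19.4 CPM, a ratio of 27.7 (25.2 to 30.5). Col5a2, of the type V collagen that starts fibrils, stood at 129 and 5.27 CPM, a ratio of 24.5 (20.5 to 29.6). Mesenchyme was not their only site at E14. Glial-like cells had 597 CPM of Col3a1 and 187 CPM of Col5a2, above the mesenchymal cell-like levels, and 658 CPM of Col1a2. Pericyte-like cells had 530 CPM of Col3a1 and 314 CPM of Col1a2. None of these 3 genes was above the carry-over prediction, by the limit given, in the E14 SC-like, nonsensory epithelial-like or HC-like class. For Col1a2 the predictions were 55.2, 35.3 and 13.9 CPM, and the levels 43.5, 19.9 and 14.3 CPM. The pattern of Col5a1, the other main chain of type V, was different. It had 52.9 CPM in mesenchymal cell-like cells and still 40.6 CPM in nonsensory epithelial-like and 14.3 CPM in SC-like cells, against predictions of 1.38 and 2.15 CPM.

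Type I collagen normally combines Col1a1 with Col1a2, yet in E14 mesenchymal cell-like cells Col1a1 had 251 UMIs and Col1a2 43203. Whether the annotation the authors used counted all 3′ reads of Col1a1 was not tested, and each Col1a1 level and each ratio to Col1a2 given here carries that doubt. Col1a1 was at 0.414 CPM in the cluster led by Car3, Aqp1 and Prr16 and at 0.359 CPM in the cluster led by Wif1, Trf and Coch, where Col1a2 reached 1298 and 1245 CPM. Of the mesenchymal cell-like clusters, the one led by Aspn and Mgp had the most Col1a1, at 32.5 CPM, beside 1720 CPM of Col1a2. The highest Col1a1 of any E14 cluster was in unnamed epithelial cells led by Vit, Adamts19 and Aldh1a1, with 126 CPM, where Col1a2 was at 22.5 CPM, or 5.61 UMIs of Col1a1 per UMI of Col1a2 (95% interval 4.53 to 7.01). At P2 the highest level was again in unnamed epithelial cells, led by H19 and Sostdc1, with 69 UMIs or 44.7 CPM of Col1a1 and 3 UMIs of Col1a2. Over the 33 E14 clusters, which share 1 library, the Pearson r of the log CPM of both chains was 0.08.

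The cartilage-type fibril chains did not follow type I. Col2a1, the type II chain, was at 1199 CPM in E14 mesenchymal cell-like cells, 1198 CPM in nonsensory epithelial-like cells and 546 CPM in SC-like cells. The carry-over predictions for the latter classes were 31.2 and 48.8 CPM. Col11a1, a type XI chain, was at 181 CPM in mesenchymal cell-like, 182 CPM in SC-like and 156 CPM in nonsensory epithelial-like cells. Its partner Col11a2 was at 135, 127 and 69.1 CPM. Col27a1, a fibrillar chain of developing cartilage, was higher in nonsensory epithelial-like cells (164 CPM) than in mesenchymal cell-like cells (72.2 CPM), with a mesenchymal to nonsensory ratio of 0.441 (0.413 to 0.470). The clusters overlapped, from 48.5 CPM to 400 CPM in the nonsensory class, highest in that led by Sfrp5 and Wnt3, and from 46.5 to 140 CPM in the mesenchymal class.

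Col11a1 and Col11a2 were close to each other in several classes, with 1.34 UMIs of Col11a1 per UMI of Col11a2 in E14 mesenchymal cell-like, 1.43 in E14 SC-like and 1.36 in P2 SC-like cells. Glial-like cells had 1044 UMIs of Col11a1 and 24 of Col11a2, a ratio of 43.5 (29.1 to 68.2). The Aspn-led mesenchymal cell-like cluster also leaned to Col11a1, at 412 CPM with 21.8 CPM of Col11a2. In the glial-like cells Col5a3, another type V chain, reached 122 CPM, while it was at or below 1.31 CPM in the E14 mesenchymal, SC-like, nonsensory and HC-like classes.

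Taken class by class, the distance to mesenchyme varied. Against HC-like cells 25 of 27 members past the filter were at least 2-fold higher in mesenchymal cell-like cells, as were 17.3% of all genes, with a median log2 ratio of 4.76. Against SC-like cells 17 of 27 were, as were 9.73% of all genes, with a median of 1.89. Against nonsensory epithelial-like cells 13 of 29 were, as were 8.48% of all genes, with a median of 0.86, and 3 members were at least 2-fold lower, as were 14.9%. Those 3 were Col18a1, Col27a1 and Col8a1.

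**Figure D2:**
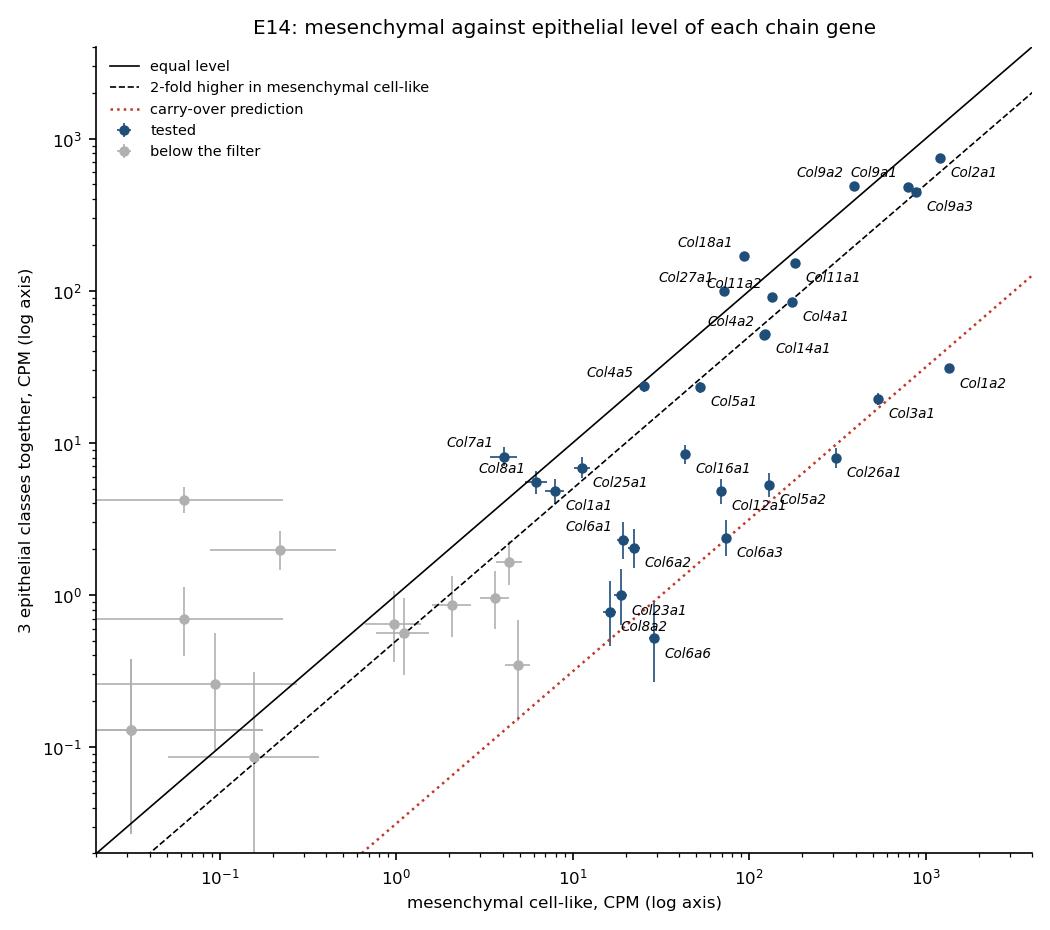
Level of each chain gene with a UMI on both sides in E14 mesenchymal cell-like cells (x axis) against the SC-like, nonsensory epithelial-like and HC-like classes together (y axis), both as CPM on log axes, with bars for exact Poisson 95% intervals, a solid line for equal levels, a dashed line for a 2-fold difference and a dotted line for the carry-over prediction, 3.14% of the mesenchymal level. Col1a2, Col3a1, Col26a1, Col5a2 and Col6a3 lie near the dotted line, and Col2a1, Col11a1 and the type IX genes near the solid line.

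Type IV chains build the network of basement membranes. Col4a1 and Col4a2, the chains found in nearly all basement membranes, were highest at E14 in pericyte-like cells with 1816 and 756 CPM and in endothelial-like cells with 1426 and 801 CPM. Mesenchymal cell-like cells had 174 and 122 CPM and SC-like cells 92.3 and 48.7 CPM. At E14 both were above the carry-over prediction in the SC-like, nonsensory epithelial-like and HC-like classes. Their mesenchymal to epithelial ratios were 2.06 (1.96 to 2.17) and 2.39 (2.24 to 2.55).

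The 2 genes lie head to head and varied together over the clusters. The Pearson r of their log CPM was 0.93 and Spearman's rho 0.89 over 33 E14 clusters, and 0.83 and 0.86 over 27 P2 clusters, as a description only, since clusters of 1 library share depth and stray RNA. In HC-like cells as a class Col4a2 had more UMIs than Col4a1. They had 20 UMIs of Col4a1 and 71 of Col4a2 at E14, a ratio of 0.282 (0.162 to 0.468), and 70 and 105 at P2, a ratio of 0.667 (0.485 to 0.911), while SC-like cells had ratios of 1.89 (1.71 to 2.10) and 1.97 (1.78 to 2.19). The clusters inside a class were not uniform. Of the P2 HC-like clusters the one led by Gal and R3hdml had 0.333 (0.168 to 0.623). The one of 36 cells led by Ocm and Ighm had 0.0952 (0.0108 to 0.390), while the one led by Hsd11b2 and Eya2 had 2.31 (1.17 to 4.82). The E14 nonsensory epithelial-like cluster led by Ttr and Wnt4 was below even at 0.762 (0.617 to 0.938). The promoter windows are shown because the pair shares one stretch of DNA. In RefSeq on GRCm38.p6 the start sites are 21 bases apart and the 300-base windows, from 250 bases before to 50 after each start, overlap by 78 bases. Capitals mark GC boxes (GGGCGG, on either strand) and CCAAT boxes (CCAAT, on either strand), of which the Col4a1 window at chr8:11312777-11313076 on the minus strand holds 1 and 1 and the Col4a2 window at chr8:11312555-11312854 on the plus strand 3 and 1. The Col4a1 GC box and the last GC box of the Col4a2 window are the same bases, inside the overlap.
Col4a1: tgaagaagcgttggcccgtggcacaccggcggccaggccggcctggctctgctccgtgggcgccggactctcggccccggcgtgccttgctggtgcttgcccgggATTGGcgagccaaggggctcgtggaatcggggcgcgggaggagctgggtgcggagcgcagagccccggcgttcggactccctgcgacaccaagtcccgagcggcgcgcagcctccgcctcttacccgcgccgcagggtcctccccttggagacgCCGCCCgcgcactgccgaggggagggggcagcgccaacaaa
Col4a2: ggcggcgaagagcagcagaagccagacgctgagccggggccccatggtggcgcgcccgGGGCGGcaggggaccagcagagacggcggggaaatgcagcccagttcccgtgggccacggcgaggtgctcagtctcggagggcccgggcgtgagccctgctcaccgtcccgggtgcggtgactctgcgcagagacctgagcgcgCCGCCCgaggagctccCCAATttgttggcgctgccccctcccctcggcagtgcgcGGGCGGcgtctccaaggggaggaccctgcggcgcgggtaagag
GC boxes occur in 35.7% of all 32851 RefSeq windows of this length and CCAAT boxes in 37.4%. Of the 44 members 35 have a window in the table used, some more than one, and 23 of their 38 windows hold a GC box and 13 a CCAAT box. Bases G and C make up 74.0% of the Col4a1 window and 73.7% of the Col4a2 window, against a median of 52.7% over all windows, and these matches are letters in a window, not measured binding.

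The other type IV chains were lower. Col4a5 was at 25.4 CPM in E14 mesenchymal cell-like cells, 38.9 CPM in nonsensory epithelial-like cells and 70.3 CPM in that class at P2. Its usual partner Col4a6 was scarcer in each class, with 139 UMIs to 808 of Col4a5 in E14 mesenchymal cell-like cells and 0 to 307 in P2 SC-like cells. Col4a3 and Col4a4, which join Col4a5 in the basement membranes of the kidney glomerulus and the cochlea, were scarce at E14, with 16 and 129 UMIs in all kept cells. At P2 they had 101 and 344. Their P2 levels were highest in the unnamed epithelial cells led by Penk and Gchfr, with 12.3 CPM of Col4a3 and 23.9 CPM of Col4a4, and they were 0.876 and 5.26 CPM in SC-like cells. In SC-like, nonsensory epithelial-like and unnamed epithelial cells together, Col4a4 rested on 33 UMIs at E14 (0.979 CPM) and 335 at P2 (10.8 CPM), a ratio of 10.98 (7.67 to 16.2).

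Col9a2 and Col9a1, of type IX collagen, were the most abundant chain genes of P2 SC-like cells, and at E14 they stood there beside Col2a1. Type IX is a FACIT collagen of the Col9a1, Col9a2 and Col9a3 chains that binds the surface of type II fibrils, and it is a known component of the tectorial membrane of the cochlea. At E14 SC-like cells had 518 CPM of Col9a1, 577 CPM of Col9a2 and 333 CPM of Col9a3, against carry-over predictions of 32.3, 16.0 and 35.9 CPM. Mesenchymal cell-like cells had 795, 393 and 883 CPM. In P2 SC-like cells they were at 1160, 1486 and 442 CPM.

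The balance of the chains differed between mesenchymal cell-like and SC-like cells, with other epithelial cells in between or mixed. Mesenchymal cell-like cells had 2.03 UMIs of Col9a1 per UMI of Col9a2 at E14 (95% interval 1.98 to 2.07) and 2.16 (1.73 to 2.72) at P2. SC-like cells had 0.896 (0.865 to 0.929) and 0.780 (0.765 to 0.796). For Col9a3 per Col9a2, mesenchymal cell-like cells had 2.25 (2.20 to 2.30) and 2.72 (2.19 to 3.39), and SC-like cells 0.577 (0.555 to 0.601) and 0.297 (0.289 to 0.306). Nonsensory epithelial-like cells lay between these at E14, with 1.44 (1.39 to 1.50), and at P2 had 0.465 (0.431 to 0.502). The nonsensory values depend on which clusters the class holds. At E14 they ran from 0.323 in the cluster led by Pyy and Prss56 to 2.42 in that led by Rspo3 and Bpifb3, and at P2 from 0.237 in that led by Lcn2 and Wnt3 over 0.369 in that led by Nupr1 and Prss56 to 1.36 in that led by Kcne1 and Bpifb3. In SC-like clusters they ran from 0.454 to 1.02 at E14 and from 0.198 to 0.471 at P2. Unnamed epithelial cells were nearer to mesenchymal cell-like than to SC-like cells at E14. Per UMI of Col9a2 they had 1.75 (1.70 to 1.81) of Col9a1 and 1.74 (1.69 to 1.79) of Col9a3, and at P2 1.02 and 0.449.

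Glial-like cells departed most, with 47 UMIs of Col9a1, 436 of Col9a2 and 394 of Col9a3, or 0.108 UMIs of Col9a1 per UMI of Col9a2 (0.0780 to 0.146). Across clusters Col9a1 and Col9a3 still varied together (Pearson r of log CPM 0.95 over 33 E14 clusters and 0.97 over 27 P2 clusters, within 1 library each). The Col9a1 windows are printed because this gene has more than one start site, which a count of 3′ ends cannot tell apart, and the Col9a2 window because this chain had the highest level in P2 SC-like cells. The windows lie at chr1:24177360-24177659, chr1:24194953-24195252 and chr4:121039316-121039615 of GRCm38.p6, all on the plus strand, with the same motifs in capitals.
Col9a1 first start: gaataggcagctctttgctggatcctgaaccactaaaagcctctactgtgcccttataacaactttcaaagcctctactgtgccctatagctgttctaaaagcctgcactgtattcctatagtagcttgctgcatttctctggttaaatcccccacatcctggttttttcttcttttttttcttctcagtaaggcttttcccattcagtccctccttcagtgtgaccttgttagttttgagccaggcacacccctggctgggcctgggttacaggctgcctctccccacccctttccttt
Col9a1 second start: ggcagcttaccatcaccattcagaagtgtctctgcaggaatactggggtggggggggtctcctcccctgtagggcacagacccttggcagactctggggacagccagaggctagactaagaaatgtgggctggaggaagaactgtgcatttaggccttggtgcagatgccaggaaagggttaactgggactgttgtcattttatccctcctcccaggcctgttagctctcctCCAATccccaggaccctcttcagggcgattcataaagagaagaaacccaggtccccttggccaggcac
Col9a2: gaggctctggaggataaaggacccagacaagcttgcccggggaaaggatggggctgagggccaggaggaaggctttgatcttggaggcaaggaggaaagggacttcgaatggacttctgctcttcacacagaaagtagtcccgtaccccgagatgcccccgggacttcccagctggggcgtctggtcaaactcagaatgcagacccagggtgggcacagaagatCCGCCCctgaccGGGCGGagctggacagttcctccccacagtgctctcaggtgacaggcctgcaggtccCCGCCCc
The Col9a1 start sites are 17593 bases apart. The first window holds neither motif and the second 1 CCAAT box, while the Col9a2 window holds 3 GC boxes and no CCAAT box. Bases G and C make up 47.3%, 55.7% and 61.7% of the windows.

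**Figure D3:**
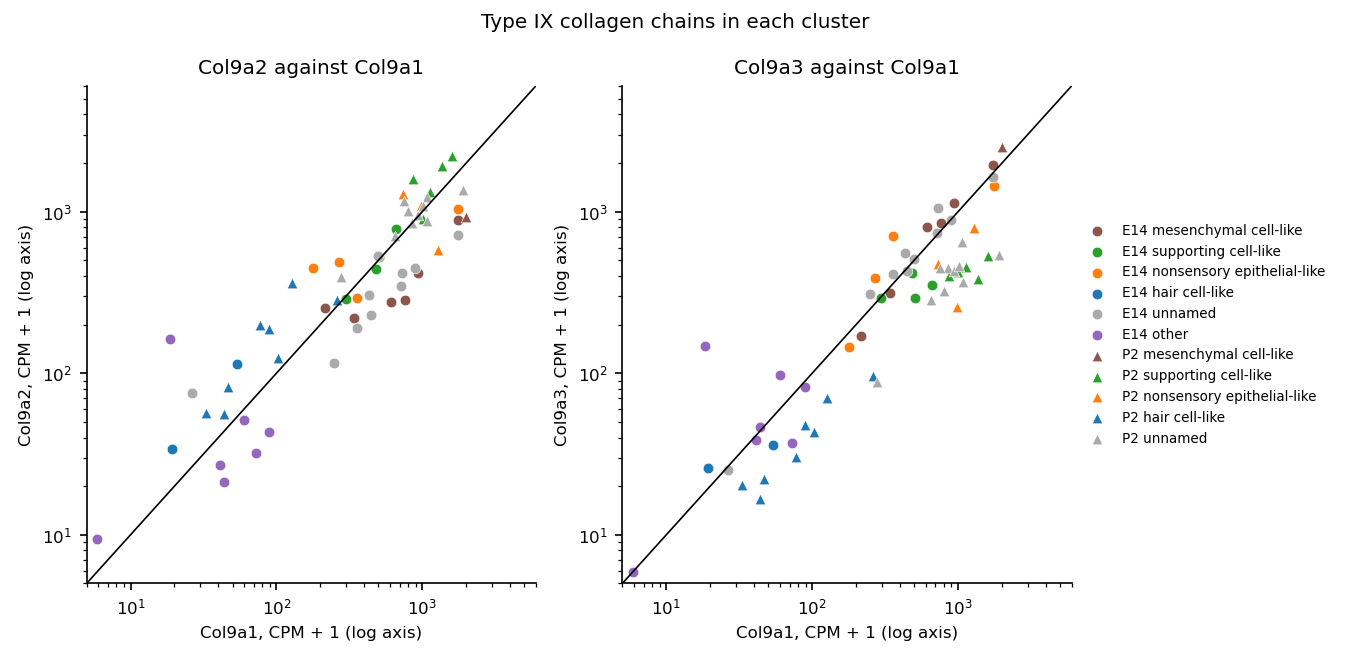
Col9a2 (left) and Col9a3 (right) against Col9a1 in each cluster, as CPM plus 1 on log axes, with circles for E14 and triangles for P2, colours for the class and a line for equal levels. E14 mesenchymal cell-like clusters (brown circles) mostly lie below the line on the left and near or above it on the right, and P2 SC-like clusters (green triangles), with 382 to 529 CPM of Col9a3, lie below it on the right.

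The remaining FACIT genes were more local. Col12a1 and Col14a1, which attach to type I fibrils in tendon and fascia, peaked among mesenchymal cell-like clusters in the Aspn-led one, with 410 and 439 CPM, while the other 5 of these clusters had 7.53 to 42.8 and 33.1 to 191 CPM. Col14a1 was also strong in several epithelial clusters, with 603 CPM in the E14 nonsensory epithelial-like cluster led by Pyy and Prss56 and 263 CPM in the P2 nonsensory epithelial-like cluster led by Nupr1 and Prss56. It further reached 173 CPM in the E14 nonsensory epithelial-like cluster led by Sfrp5 and Wnt3, 186 CPM in unnamed epithelial cells of P2 led by Zpld1 and Car3, 139 CPM in those led by H19 and Sostdc1, and 133.5 CPM in those of E14 led by Vit. SC-like cells had 4.75 CPM of Col14a1 at E14, which did not exceed the prediction of 4.98 CPM, and 2 UMIs at P2. Col20a1, another FACIT chain, was at 67.1 CPM in glial-like cells and at most 4.25 CPM in the mesenchymal cell-like, SC-like, nonsensory epithelial-like and HC-like classes of E14. Col16a1 was at 43.5 CPM in E14 mesenchymal cell-like cells and 8.18 CPM in SC-like cells, against a prediction of 1.77 CPM, and its highest E14 class was glial-like, at 95.1 CPM.

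Among the short-chain network genes, which form the hexagonal lattices of the corneal Descemet membrane, Col8a1 and Col8a2 did not run in parallel. Col8a2 was at 16.2 CPM in E14 mesenchymal cell-like cells and 0.778 CPM in the epithelial classes. Col8a1 was at 13.0 CPM in E14 nonsensory epithelial-like cells, where the cluster led by Rspo3 and Bpifb3 had 19.3 CPM, and the P2 cluster led by Kcne1 and Bpifb3 had 90.3 CPM. It was 25.2 CPM in the whole P2 nonsensory epithelial-like class and 1 UMI in P2 SC-like cells.

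Type VI chains form beaded microfilaments around cells, and 3 of them were far higher in mesenchymal cell-like cells than in the epithelial classes at E14. Col6a3 stood at 73.5 and 2.38 CPM (ratio 30.9, 23.7 to 41.2), Col6a2 at 22.2 and 2.03 CPM (10.9, 8.14 to 15.0) and Col6a6 at 28.9 and 0.519 CPM (55.7, 31.7 to 108). Outside these classes, Col6a3 had 344 UMIs among 2681405 in glial-like and 30 among 194417 in pericyte-like cells. Each is a larger share than the 2340 among 31823698 in mesenchymal cell-like cells. Col6a1 was at 19.3 CPM in mesenchymal cell-like cells and, unlike its partners, at 8.51 CPM in HC-like cells, above a prediction of 0.197 CPM. HC-like cells had 22 UMIs of Col6a1 and 2 of Col6a2 at E14 and 97 and 5 at P2, while mesenchymal cell-like cells had 613 and 707 at E14. Of the P2 HC-like clusters the largest, with 311 cells, had the highest Col6a1, at 12.9 CPM. Col6a4 was found mainly in the E14 nonsensory epithelial-like cluster led by Rspo3 and Bpifb3, with 20.2 CPM, and Col6a4, Col6a5 and Col6a6 are neighbours on mouse chromosome 9.

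Col26a1, a secreted collagen of mesenchyme and gonads, was highest in mesenchymal cell-like cells among these classes. Its levels were 311 CPM in mesenchymal cell-like cells and 7.95 CPM in the epithelial classes, a ratio of 39.1 (33.8 to 45.5). Col7a1, the chain of anchoring fibrils beneath epithelia, was the one member that leaned to epithelium by 2-fold, with 4.05 CPM in mesenchymal cell-like cells and 8.12 CPM in the epithelial classes (ratio 0.499, 0.396 to 0.628). That call sits at the limit and was lost under 7 other settings, with ratios up to 0.603.

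Multiplexins are basement membrane collagens with sugar side chains. Col15a1 was at 265 CPM in endothelial-like cells and at most 7.01 CPM in any other E14 class or in the unnamed clusters together. Col18a1, the source of endostatin, was at 393 CPM in endothelial-like cells, 211 CPM in nonsensory epithelial-like, 159 CPM in SC-like and 93.1 CPM in mesenchymal cell-like cells. The ratio of mesenchymal to nonsensory epithelial-like cells was 0.441 (0.416 to 0.467). Of the transmembrane collagens Col23a1 was at 123 CPM in glial-like cells and 18.7 CPM in E14 mesenchymal cell-like cells, and Col13a1 rested on 7 UMIs (7.80 CPM) in endothelial-like cells. Col25a1, known for its part in the motor innervation of muscle, was at 11.3 CPM in E14 mesenchymal cell-like cells and 7.92 CPM in SC-like cells, and at P2 reached 25.9 CPM in the unnamed epithelial cells led by Penk.

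Between the ages, SC-like cells kept most of their chain levels within 2-fold. Of 16 members past the filter, 3 were at least 2-fold higher at P2, where 7.47% of all 10356 genes were, and 3 at least 2-fold lower, where 5.18% were. The median log2 ratio was 0.09 for the members and 0.07 for all genes. Col9a2 was at 577 CPM at E14 and 1486 CPM at P2, a ratio of 2.57 (2.50 to 2.65). Col9a1 was at 518 and 1160 CPM, a ratio of 2.24 (2.17 to 2.31). Col16a1 was at 8.18 and 30.9 CPM, a ratio of 3.78 (3.02 to 4.78). Col9a3 was closer to even, at 333 and 442 CPM (1.33, 1.27 to 1.38).

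The higher type IX levels depended on which E14 cells they were set against. The E14 SC-like class holds 4 clusters with 286 to 776 CPM of Col9a2 and 297 to 658 CPM of Col9a1. The 5 SC-like clusters of P2 had 899.9 to 2202 CPM of Col9a2 and 867 to 1595 CPM of Col9a1. In the unnamed epithelial clusters of E14 Col9a2 ran from 228 to 718 CPM and Col9a1 from 429 to 1743 CPM. Clusters of 1 library are not replicates, so these ranges only describe the classes. Against only the largest E14 SC-like cluster, led by Tectb and Otol1, the ratios were 1.91 (1.86 to 1.97) for Col9a2 and 1.76 (1.70 to 1.82) for Col9a1, below the 2-fold limit, and 3.28 (2.49 to 4.37) for Col16a1. By that comparison, chosen after seeing the data, 1 of 16 members was higher, as were 6.04% of all genes, and 3 were lower, as were 4.97%. Thinned to 3000 UMIs per cell, 78.3% of 646 E14 and 97.9% of 801 P2 SC-like cells had a UMI of Col9a2 (378 and 12 shallower cells left out), against 76.95% and 99.6% without thinning, and in E14 immune-like cells the thinned share was 3.85%. The median depths were 6348.5 UMIs in E14 SC-like, 11481 in P2 SC-like and 3617 in immune-like cells.

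The chains lower in P2 SC-like cells were Col1a2, Col3a1 and Col5a1. Col1a2 went from 494 UMIs (43.5 CPM) to 3 UMIs (0.202 CPM), a ratio of 0.00465 (0.000956 to 0.0137), and Col3a1 from 25.6 to 1.95 CPM, a ratio of 0.0763 (0.0502 to 0.112). The list of mesenchymal genes used for the carry-over stood at 825 CPM in E14 and 55.9 CPM in P2 SC-like cells, and neither gene was above its prediction at either age. At E14 the smallest SC-like cluster, 52 cells led by Nts and Igfbpl1, had 361 CPM of Col1a2 and 5518 CPM of the list, and the largest cluster 16.2 and 280 CPM. Col5a1 was at 14.3 and 1.62 CPM, a ratio of 0.113 (0.0707 to 0.175), and unlike the others it was above the prediction in both libraries. Col2a1 was at 546 and 344 CPM (0.630, 0.607 to 0.654) and did not reach the limit.

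In nonsensory epithelial-like cells 20 members passed the filter. Those at least 2-fold higher at P2, as were 7.61% of all genes, were Col16a1 (10.7 and 33.9 CPM, ratio 3.18, 2.29 to 4.38), Col9a2 (485 and 1074 CPM, 2.22, 2.10 to 2.34) and Col11a1 (156 and 326 CPM, 2.09, 1.91 to 2.30). The class holds 4 clusters at E14 and 3 at P2, and their ranges overlapped between the ages, from 5.83 to 24.6 and from 17.1 to 42.4 CPM for Col16a1, from 291 to 1039 and from 579 to 1278 CPM for Col9a2, and from 94.7 to 249 and from 213 to 407 CPM for Col11a1. Col1a2 and Col5a1 were lower by that limit, as were 7.60% of all genes. Col1a2 was at 19.9 and 1.54 CPM (0.0773, 0.0158 to 0.230, on 3 UMIs at P2) and Col5a1 at 40.6 and 12.8 CPM (0.316, 0.202 to 0.474). Under 5 other settings the Col11a1 ratio was under 2-fold, down to 1.49, under 3 of them the Col9a2 ratio, down to 1.69, and under 1 the Col16a1 ratio, at 1.78. When SC-like, nonsensory epithelial-like and unnamed epithelial cells were joined at each age, a comparison added after seeing the data, 3 of 21 members were higher at P2, as were 7.88% of all genes, and 6 were lower, as were 5.39%. There Col9a2 and Col16a1 kept ratios of 2.30 (2.26 to 2.34) and 2.88 (2.55 to 3.25), Col9a1 had 1.55 (1.53 to 1.58), Col9a3 0.671 (0.657 to 0.685) and Col2a1 0.366 (0.358 to 0.374).

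Nonsensory epithelial-like cells, which surround the sensory patch and include cells that make the ionic fluid of the labyrinth, had several chain genes at higher levels than SC-like cells at both ages. At E14 8 of 23 members past the filter were at least 2-fold higher there, as were 7.52% of all genes. Among them Col14a1 stood at 125 CPM against 4.75 CPM, a ratio of 26.3 (20.02 to 35.2), and Col8a1 at 13.0 against 0.792 CPM, a ratio of 16.4 (8.33 to 36.7). The nonsensory epithelial-like clusters ran from 0 to 19.3 CPM of Col8a1, so that call does not hold in each of them. Only Col1a2 was lower by the limit (0.458), as were 5.79% of all genes. It was not above its carry-over prediction in either class. Its SC-like clusters ran from 16.2 CPM to 361 CPM, the highest in a cluster of 52 cells, and its nonsensory epithelial-like clusters from 12.3 to 35.0 CPM.

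The P2 nonsensory epithelial-like cells differed from P2 SC-like cells in 8 of 18 members, all at least 2-fold higher, as were 8.28% of all genes, and none was lower, as were 7.71%. Col14a1 stood at 162 CPM against 0.135 CPM, a ratio of 1204 (330 to 9982) that rests on 2 UMIs in SC-like cells, and Col8a1 at 25.2 against 0.0674 CPM, a ratio of 373 (63.9 to 15041) on 1 UMI. Col3a1 had a ratio of 9.19 (5.46 to 15.6), but its 35 UMIs lay in 0.806% of the 124 cells, that is in 1 cell, so this call is no trait of the class. The ratio was 7.94 (4.35 to 14.5) for Col5a1, 3.40 (2.76 to 4.17) for Col4a5, 2.67 (2.53 to 2.82) for Col2a1, 2.28 (2.08 to 2.51) for Col18a1 and 2.03 (1.68 to 2.44) for Col4a2. For Col8a1, Col2a1, Col18a1 and Col4a2 the clusters of the class did not all go this way. Col8a1 was at 0 CPM in the cluster of 50 cells led by Nupr1 and Prss56 and at 90.3 CPM in that led by Kcne1 and Bpifb3. Col2a1 ran from 112 CPM in the cluster led by Nupr1 and Prss56 to 2649 CPM in that led by Kcne1 and Bpifb3, against 344 CPM in SC-like cells. In the Kcne1-led cluster Col18a1 was at 88.1 CPM and Col4a2 at 26.4 CPM, below the SC-like levels of 132 and 36.7 CPM. The type IX genes were not among the 8, with ratios of 0.790 for Col9a1, 0.723 for Col9a2 and 1.13 for Col9a3.

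**Figure D4:**
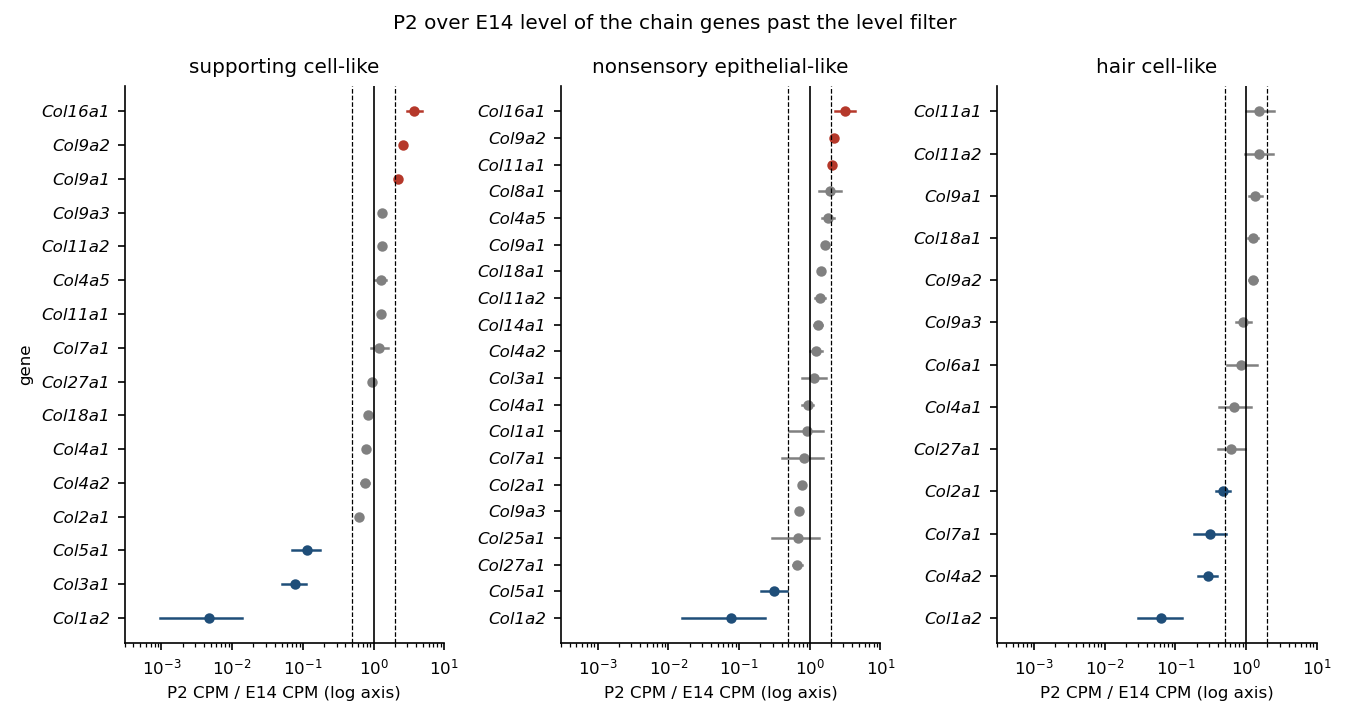
Ratio of P2 to E14 CPM on a log axis for the chain genes past the level filter in SC-like, nonsensory epithelial-like and HC-like cells, with exact 95% counting intervals, a solid line at equal levels and dashed lines at 2-fold. Red marks genes at least 2-fold higher at P2 and blue genes at least 2-fold lower, with Col1a2 lowest in each panel (0.00465, 0.0773 and 0.0630).

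HC-like cells had the fewest collagen transcripts of the epithelium. Of 13 members past the filter at P2, 12 were at least 2-fold lower than in SC-like cells, as were 17.4% of all genes, and at E14 14 of 17, as were 15.5%. None of these was at least 2-fold higher, as were 18.0% of all genes at P2 and 18.2% at E14. Below the filter, some members were higher in HC-like cells. Col6a1 was at 7.29 CPM in P2 HC-like and 1.95 CPM in P2 SC-like cells (97 and 29 UMIs). Col26a1 was at 2.70 and 0.202 CPM (36 and 3 UMIs). Others were lower there, such as Col12a1 at 0.150 and 2.90 CPM. At E14 Col6a1 had 22 of 2585580 UMIs in HC-like and 15 of 11367310 in SC-like cells. For genes with at least 5 CPM in SC-like cells, the HC-like level was also taken as a percentage of the SC-like level. That limit leaves out members that are low in SC-like cells, so the percentages do not describe all members. At P2 the median was 8.01% over 14 members and 7.25% over 14 supporting cell markers. The highest markers were Sox2 at 76.6%, Lfng at 44.8% and Prox1 at 38.5%. Col9a1, Col2a1, Col4a5, Col11a1, Col9a3, Col4a1, Col9a2 and Col11a2 lay between 5.21% and 8.02%. Whether RNA of SC-like cells in HC-like barcodes makes up these levels was not tested.

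A few members past that 5 CPM limit stood higher, at P2 within the range of the supporting cell markers. This range was 3.02% to 76.6% at P2 and 1.60% to 65.4% at E14. Col18a1 was at 84.3 CPM in P2 HC-like cells, 64.1% of the SC-like level (59.5 to 69.0), and at 66.5 CPM or 41.9% (35.6 to 49.0) at E14. Col7a1 was at 32.8% (22.8 to 46.4) at P2 and 128% (79.9 to 198) at E14, on 27 UMIs. Col4a2 was at 21.5% (17.3 to 26.5) at P2 and 56.3% (43.4 to 72.2) at E14. Thinned to 3000 UMIs, 17.2% of 890 P2 HC-like cells (14.8 to 19.8) and 18.7% of 182 E14 HC-like cells (13.3 to 25.1) had a UMI of Col18a1, against 1.92% of 156 E14 immune-like cells (0.398 to 5.52), with 265, 15 and 127 shallower cells left out. The unthinned shares were 42.3%, 45.2% and 3.18%, at median depths of 13480, 14216 and 3617 UMIs. For Col2a1 the thinned share was 7.14% in E14 HC-like cells and 7.05% in immune-like cells of the same library. In P2 HC-like cells it was 5.39%, with no immune-like class in that library to set beside it, and the summed level there was 19.5 CPM against a carry-over prediction of 2.39 CPM. The P2 HC-like clusters spread from 21.9 to 131 CPM of Col18a1, and the largest cluster had the highest level.

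From E14 to P2, none of 13 members was at least 2-fold higher in HC-like cells, as were 5.13% of all genes, and 4 were at least 2-fold lower, as were 4.36%. Col1a2 was at 14.3 and 0.902 CPM (0.0630, 0.0299 to 0.124), Col4a2 at 27.5 and 7.89 CPM (0.287, 0.211 to 0.394), Col7a1 at 10.4 and 3.23 CPM (0.309, 0.187 to 0.521) and Col2a1 at 41.8 and 19.5 CPM (0.468, 0.372 to 0.591). Col18a1 was near even, with 1.27 (1.08 to 1.50). The Col2a1 ratio was within 2-fold with the carry-over prediction subtracted (0.581), with every barcode kept (0.758) and as a mean of per-cell levels (0.686). The summed carry-over list stood at 207 CPM in E14 and 17.4 CPM in P2 HC-like cells, and immune-like cells, which should lack these genes, had 18.2 CPM of Col1a2 and 36.4 CPM of Col2a1 at E14.

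**Figure D5:**
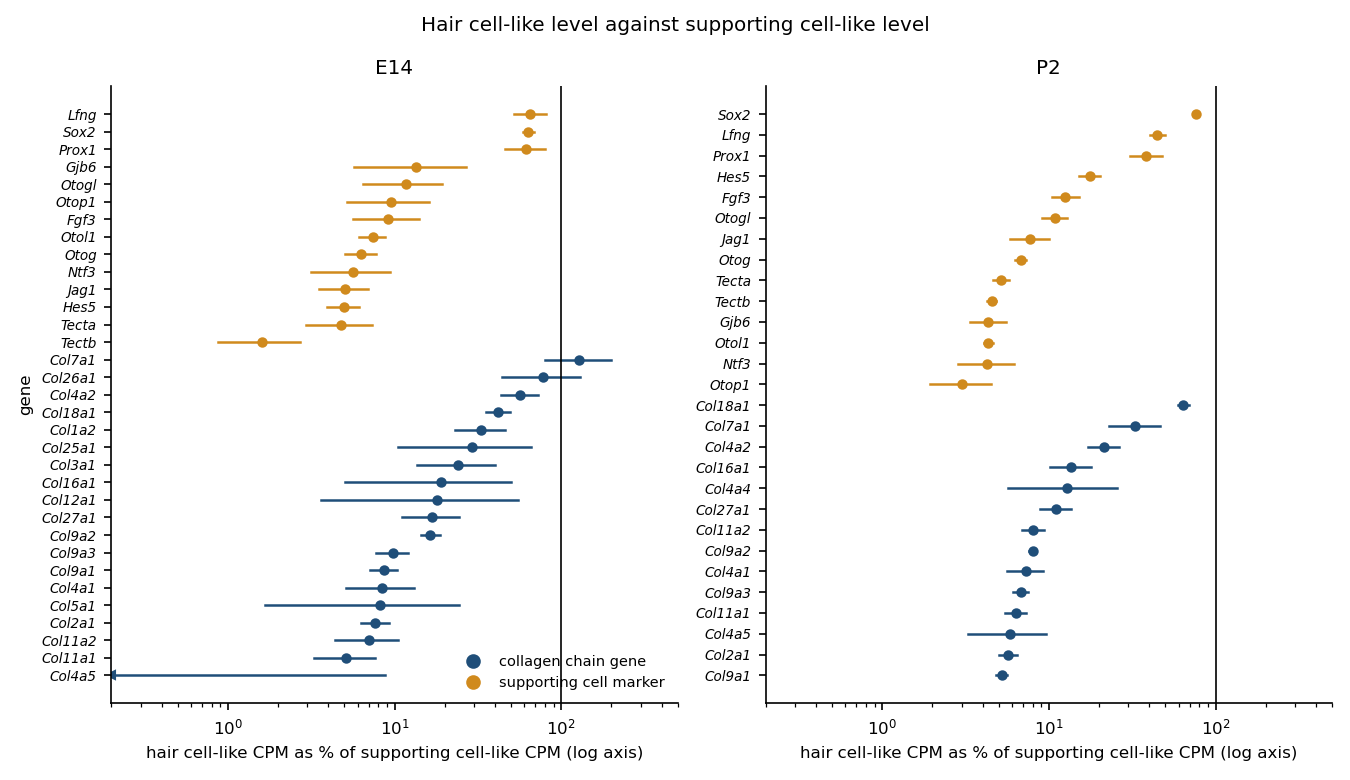
HC-like level as a percentage of the SC-like level (log axis) at E14 and P2 for chain genes (blue) and supporting cell markers (orange). Only genes with at least 5 CPM in SC-like cells are shown, with exact 95% counting intervals and a line at 100%. At P2 most of the chain genes shown lie among the markers, near their median of 7.25%. Col18a1 (64.1%), Col7a1 (32.8%) and Col4a2 (21.5%) lie to the right, as do the markers Sox2 (76.6%), Lfng (44.8%) and Prox1 (38.5%).

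The 32 mesenchymal cell-like cells of P2 give levels on 125917 UMIs only. Of 28 members past the filter 7 were at least 2-fold higher than at E14 and 5 lower, as were 20.2% and 10.3% of all genes. Col1a2 was at 2557 CPM, Col9a3 at 2502 CPM, Col2a1 at 2041 CPM and Col9a1 at 1993 CPM, and Col1a1 had 0 UMIs beside 322 of Col1a2, with the same doubt about how Col1a1 reads were counted. Since the E14 cells fell into 6 clusters with 215 to 1745 CPM of Col9a1, a difference of age cannot be told apart from a difference in which mesenchymal cells were captured.

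Collagen chains need enzymes and a chaperone to fold, proteases to trim them and receptors to be sensed, and 5 lists of such genes were followed beside the chains. Of 16 folding and secretion genes past the filter 5 were at least 2-fold higher in E14 mesenchymal cell-like cells than in the epithelial classes, and 1, the lysyl hydroxylase Plod2, was lower, beside 8.28% and 16.0% of all genes. Serpinh1, the collagen chaperone HSP47, was at 818 CPM in mesenchymal cell-like, 504 CPM in nonsensory epithelial-like, 368 CPM in SC-like and 44.1 CPM in HC-like cells. Plod2 was at 27.6, 117, 180 and 14.3 CPM in the same order. The order of Serpinh1 was that of the collagen share of UMIs in these classes.

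Genes of trimming and crosslinking were higher in mesenchyme in 4 of 6 cases and lower in none, beside the same 8.28% and 16.0%. Pcolce, which speeds removal of the C-terminal propeptide, was at 103 CPM in E14 mesenchymal cell-like and 5.01 CPM in SC-like cells, and the crosslinking enzyme Lox at 37.0 and 2.02 CPM. Of 6 receptors 3 were higher and 2 lower, in that same comparison. The collagen receptor Ddr2 was at 52.0 CPM in mesenchymal cell-like and 1.94 CPM in SC-like cells, while Ddr1 was at 13.7 and 76.8 CPM and Adgrg6, a receptor that binds type IV collagen, at 4.81 and 90.1 CPM.

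Of 9 breakdown genes 3 were higher in mesenchyme, where 8.28% of all genes were, among them the protease Mmp2 with 242 CPM against 52.2 CPM in SC-like cells. Of 16 basement membrane partners of type IV collagen 6 were higher and 4 lower, and with 16.0% of all genes lower the count of 4 is near that share. The linker Nid1 was at 63.6 CPM in mesenchymal cell-like and 5.37 CPM in SC-like cells, and the epithelial laminin chain Lama5 at 1.32 and 44.9 CPM. Frem1, of the complex that anchors epithelium to its basement membrane, was at 0.189 CPM in mesenchymal cell-like and 94.8 CPM in nonsensory epithelial-like cells.

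From E14 to P2 the partner genes of SC-like cells were mostly within 2-fold, and of all genes 7.47% were higher and 5.18% lower. None of 16 folding genes was at least 2-fold higher at P2 and 1 was lower, P4ha1 (44.2 and 20.5 CPM). Of 4 trimming and crosslinking genes 2 were higher, the propeptidase Adamts2 (6.16 and 26.3 CPM) and Loxl1 (25.6 and 61.2 CPM). Of 11 basement membrane partners Npnt was higher (13.8 and 39.8 CPM), and the proteoglycans Agrn (81.2 and 32.2 CPM) and Hspg2 (18.7 and 7.08 CPM) were lower. In HC-like against SC-like cells of P2, 11 of 15 folding genes and 8 of 9 basement membrane partners were at least 2-fold lower, as were 17.4% of all genes. The other partner, Lama4, was at least 2-fold higher, as were 18.0% of all genes, and no folding gene was. Serpinh1 was at 19.1 CPM in HC-like against 282 CPM in SC-like cells.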

How the data were processed

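Per the labels, the authors made the count tables with Cell Ranger 3.1.0 and named Seurat 4.1.1. The deposited values are UMI counts per gene and barcode, not normalized. The study's methods name GRCm39 as the genome, and the labels name both GRCm39 and mm10, so positions from GRCm38 were used only for neighbours of genes and for RefSeq promoter windows. The tables had been limited to barcodes called as cells.

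Barcodes needed at least 500 genes, at least 1000 UMIs and a mitochondrial share of 15% or less. Doublets were scored against 2 simulated doublets per cell, and the top 0.8% per 1000 barcodes were removed, 1450 at E14 and 204 at P2. After log-normalization, 2000 variable genes, leaving out collagen chains and their partner genes, gave 30 principal components, 15 neighbours and Leiden clusters at resolution 1. A cluster was named from at least 3 of 117 markers of 12 classes, with no tie, and a non-epithelial name needed Epcam below the level of the whole library. A marker had to be found in at least 10% of cells, at least 2-fold higher than in the other cells with 5 CPM added, and at 20% or more of its highest cluster. Where a cluster's median depth was under 33.3% of its library's, a marker also had to be among its top 10 genes. The marker tables had been seen when these naming limits and the Epcam limit were fixed, and rebuilt names may differ from those of the study.

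UMIs were summed per class and given as CPM with exact Poisson 95% intervals, and ratios with exact conditional binomial intervals. With 1 library per age there is no test of the conditions, no p-value is given, and a gene was called by a fixed fold of 2 in either direction, if its mean level was at least 5 CPM with 30 UMIs or more in the sum. A class with 0 UMIs was set to a floor of 3 counts. Shares of cells with a UMI were thinned to 3000 UMIs per cell, with exact binomial (Clopper-Pearson) intervals. Members to name were taken from the 4 highest of each class, up to 5 each way with the largest age ratios, the 8 largest and 5 smallest mesenchymal to epithelial ratios, all chains of types I, IV, V, VI, IX and XI, and members with no UMI. Not all of them are given for each class. Other members, cluster values and partner genes beyond the 4 highest of a list were chosen after their values were seen. The members and lists were chosen with earlier results of these data known. The interval, call and carry-over steps were tested on simulated data. The work ran in Python 3.11.15, with leidenalg 0.10.2 and igraph 0.11.9 for clusters, scikit-learn 1.9.0 for components and neighbours, scipy 1.17.1 and numpy 2.4.6 for intervals, pandas 2.3.3 for tables and matplotlib 3.10.9 for plots.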

Additional observations from a re-analysis of the deposited data

How the results depend on the processing

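Of 160 shares and counts under other settings, 113 stayed within the limits set for them and 47 moved, and of 452 values of single members 400 kept their call, 32 lost it, 16 gained one, 4 moved without a call and none reversed. The cause of the moves was not tested. As reported, collagen made up 0.692% of E14 mesenchymal cell-like UMIs, 0.303% of those in the E14 epithelial classes together and 0.256% at P2. With mitochondrial, ribosomal and haemoglobin genes left out of the total these were 1.02%, 0.409% and 0.334%, which follows from the smaller total. As a mean of per-cell levels the mesenchymal share was 0.735% and the P2 epithelial share 0.225%. The E14 and P2 epithelial shares were 0.310% and 0.267% with 4000 variable genes, 0.388% and 0.251% at resolution 0.5, and 0.390% and 0.248% with no cell filter. The P2 share was 0.258% with doublets kept and 0.253% with shallow clusters left out.

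The 16 members higher in mesenchyme than in epithelium at E14 stayed within 1.5 times that number, and the 1 member lower became 0 with the 4-fold limit, 4000 variable genes, resolution 2, doublets kept or the smaller total, 2 at resolution 0.5 or with unnamed Epcam-rich clusters added, and 3 with no cell filter. Between the ages, SC-like cells had 3 members higher and 3 lower. The higher count was 0 with the 4-fold limit, 1 against the largest E14 cluster and 6 with no minimum level. The lower count was 6 with doublets kept, with the smaller total and with non-hair epithelium joined, 9 with no minimum level and 1 with a mean of at least 20 CPM. Nonsensory epithelial-like cells had 3 higher and 2 lower. The higher count was 0 with the 4-fold limit and as a mean of per-cell levels. The lower count was 1 with the 4-fold limit, a mean of 20 CPM or the carry-over subtracted, 4 at resolution 0.5, as a mean of per-cell levels or with no cell filter, 5 with doublets kept or the smaller total, and 6 with no minimum level. HC-like cells had 0 higher and 4 lower. The higher count was 1 with no minimum level, 2 with no cell filter and 3 as a mean of per-cell levels. The lower count was 1 with the 4-fold limit or a mean of 20 CPM, 2 with the carry-over subtracted and 7 with doublets kept.

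The joined epithelium, the largest E14 SC-like cluster, the left-out shallow clusters and the added unnamed epithelium were chosen after seeing the data. No paired analysis was possible because the labels give no replicate numbers and each age has 1 library, so there was no replicate to leave out. The P2 mesenchymal cell-like class rests on 32 cells, and members under 30 UMIs in a comparison were not called.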
